A study of Sus scrofa with 5 samples.

Results

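The 6 genes SELP, SELE, VCAM1, ICAM1, ICAM2 and CD34 encode adhesion molecules of the endothelium, the cell layer that lines blood vessels. They were chosen by symbol as a family of vessel-wall adhesion molecules. The rule itself uses no measured value, but the genes and the lists set beside them were chosen with earlier results of these data known. Of the 6 genes, 5 were among the 15235 gene symbols of the pig table used here. SELE was analysed in the human table only, where all 6 symbols stood among 59140.

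The data were bulk RNA sequencing libraries of kidney core biopsies from the second case of a pig-to-human kidney xenotransplantation, with ribosomal RNA depleted before library construction. The xenograft group held 3 biopsies, 1 each at 12, 24 and 48 h. The control group held 2 libraries of untransplanted kidney labelled 0 h. Where 3 xenograft values and 2 control values are given for a gene, they stand for 12, 24 and 48 h and for replicates 1 and 2, in those orders. The labels give no strain, age, genetic modification or drug treatment for either group. They do not say whether the controls came from separate animals or from the kidney later grafted. The 3 biopsies came from 1 case, with no replicate at any time. The comparison with the controls pools the 3 times, so its spread includes change over time. The p-values therefore measure only the spread between these libraries and not that between grafts. Reads of each library were assigned to genes of pig and, separately, of human, and the sources used here do not say whether the 2 assignments competed for reads. The adhesion genes had at most 6.26 counts under the human symbol for every 100 under the pig symbol in any library, and the part of human reads in their pig-table counts was not tested.

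Leukocytes leave the blood in steps. Selectins on the vessel wall catch them so that they roll, and immunoglobulin-family molecules such as ICAM1 and VCAM1 then hold them through integrins while they cross between endothelial cells. P-selectin is stored in Weibel-Palade bodies of endothelial cells and in platelet granules, whereas E-selectin, VCAM1 and ICAM1 are made on demand under NF-kB after tumour necrosis factor or interleukin-1. In kidney, VCAM1 and ICAM1 are also made by injured tubule cells and by stromal cells, and ICAM1, ICAM2 and CD34 are found on blood cells or their progenitors.

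Depth per library was 56129926 to 71108823 pig-table counts, with 13381459 to 19728798 human-table counts beside them. The 2 controls were distinct beyond sampling noise (chi-square per degree of freedom 212 in the pig table), and the mitochondrial share of pig-table counts was 11.8% to 14.5% in the xenograft biopsies and 21.9% and 33.4% in the controls. Of 20 pig-table genes that mark endothelial identity, all were detected in every library, and their summed level was 1421 to 1613 counts per 1000000 (CPM) in the xenograft biopsies and 720 to 859 CPM in the controls. CPM values were scaled between libraries by the trimmed mean of M values (TMM), and a level was compared between libraries only, since transcript lengths were not used. In bulk tissue, a change in the number of cells of a type and a change in RNA per cell cannot be told apart.

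In the pig table, 4 of the 5 adhesion genes were higher in the xenograft biopsies than in untransplanted kidney. SELP had the largest fold of the 5, ICAM1, VCAM1 and ICAM2 had smaller ones, and CD34, which lay below the controls at 12 h and above them at 48 h, did not pass the test. Calls here are genes with an adjusted p under 0.05 in edgeR's quasi-likelihood test, Benjamini-Hochberg adjusted over all genes tested. Over all 12620 pig genes tested, 18.5% were called higher, 19% lower and 37.5% in either direction, with a median log2 fold change of 0.03. The share of all pig genes whose biopsies did not overlap the controls is not given here. Where lack of overlap is stated for an adhesion gene below, it therefore has no background beside it.

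**Figure D1:**
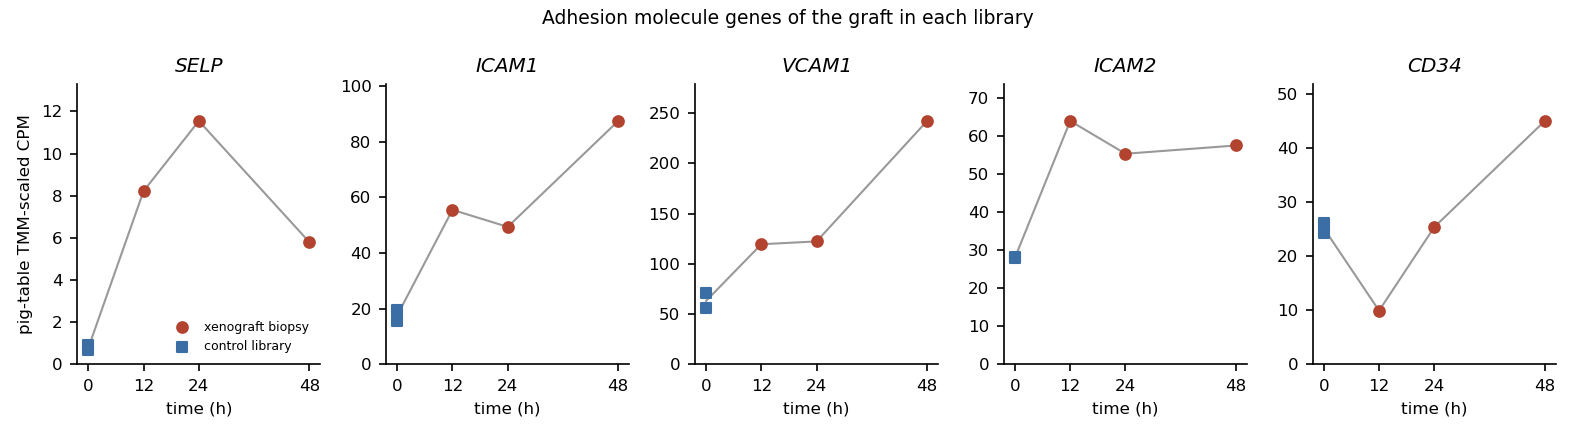
Pig-table level of each of the 5 adhesion genes in TMM-scaled CPM (vertical axes, each starting at 0), by hours after transplantation (horizontal axes), with 1 circle for each xenograft biopsy, 1 square for each control library at 0 h and a line that joins the biopsies to the control mean. SELP was highest at 24 h with 11.6 CPM, VCAM1 and ICAM1 were highest at 48 h, ICAM2 lay between 55.4 and 64.0 CPM in the biopsies, and CD34 climbed across the biopsies to 45.1 CPM.

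SELP, the P-selectin gene, whose product captures passing leukocytes through the ligand PSGL-1, had 8.22, 11.6 and 5.80 CPM at 12, 24 and 48 h in the xenograft, against 0.887 and 0.653 CPM in the controls. These values rest on 595, 841 and 389 counts in the xenograft biopsies and on 53 and 34 counts in the controls. The groups did not overlap, and the lowest biopsy stood 6.53-fold above the higher control. The fitted difference was 3.46 ± 0.384 on the log2 scale, an 11.02-fold rise (standard error, SE; 3 xenograft libraries against 2 controls; edgeR adjusted p = 0.00115). Each biopsy was above both controls, by 10.7-fold at 12 h, 15-fold at 24 h and 7.53-fold at 48 h over the control mean, and the call held with any single library left out. The 48 h level was 0.502 times the 24 h level.

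ICAM1, an immunoglobulin-family ligand of the leukocyte integrins LFA-1 and Mac-1, had 55.5, 49.4 and 87.5 CPM at 12, 24 and 48 h in the xenograft, against 19.6 and 15.5 CPM in the controls. The biopsies did not overlap the controls, and the 48 h biopsy was the highest. ICAM1 rose 3.66-fold, by 1.87 ± 0.282 on the log2 scale (edgeR adjusted p = 0.00387). Without control replicate 2 its adjusted p was 0.0564.

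VCAM1, which binds the integrin VLA-4 of lymphocytes and monocytes, had 119.4, 122.2 and 242.2 CPM at 12, 24 and 48 h in the xenograft, against 70.4 and 55.6 CPM in the controls. Here too the groups did not overlap, although the 12 h biopsy stood only 1.70-fold above the higher control. The 48 h biopsy was 1.98-fold above the 24 h one. The rise over the controls was 2.56-fold, or 1.36 ± 0.352 on the log2 scale (edgeR adjusted p = 0.0265). The call was lost without control replicate 1 (adjusted p = 0.1) and without control replicate 2 (adjusted p = 0.175), and without the 48 h biopsy the log2 difference was 0.94.

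ICAM2, which endothelium carries at rest and which binds LFA-1, had 64.0, 55.4 and 57.6 CPM at 12, 24 and 48 h in the xenograft, against 28.2 and 27.8 CPM in the controls. The biopsies lay close together and none overlapped the controls. ICAM2 rose 2.11-fold, by 1.07 ± 0.124 on the log2 scale (edgeR adjusted p = 0.00128), and the call held with any single library left out.

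CD34, a sialomucin of endothelial and haematopoietic progenitor cells, had 9.91, 25.4 and 45.1 CPM at 12, 24 and 48 h in the xenograft, against 26.1 and 24.3 CPM in the controls. The 12 h biopsy was below both controls, the 24 h biopsy lay between them and the 48 h biopsy was above both. The pooled difference was 0.09 ± 0.559 on the log2 scale, with a 95% interval from -1.27 to 1.45 (edgeR adjusted p = 0.913). Relative to the control mean, CD34 was at 0.394 times at 12 h, 1.01 times at 24 h and 1.79 times at 48 h.

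Change over time was fitted within the 3 xenograft biopsies as a straight line per 24 h, with the controls adding only to the estimate of spread. Of the 5 genes, 2 rose and none fell. The background was 3.34% of 12620 genes called higher per 24 h, 0.983% lower and 4.33% in either direction. CD34 rose by 1.34 ± 0.215 on the log2 scale per 24 h, a 2.53-fold step (edgeR adjusted p = 0.0147). The CD34 call held with any single library left out, though the log2 slope was 0.82 without the 12 h biopsy and 2.72 without the 48 h one. VCAM1 rose by 0.72 ± 0.153 per 24 h, a 1.65-fold step (edgeR adjusted p = 0.0365). That VCAM1 slope rested on the 48 h biopsy, since without it the log2 slope was 0.07 (edgeR adjusted p = 0.934, again with spread from the control pair alone).

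ICAM1 had a slope of 0.49 ± 0.159 per 24 h on the log2 scale (95% interval 0.124 to 0.85, edgeR adjusted p = 0.14), which did not pass. Without the 12 h biopsy the ICAM1 slope was 0.82 (adjusted p = 0.000339) and without the 24 h biopsy 0.44 (adjusted p = 0.00205), in fits whose spread comes from the control pair alone. The SELP slope was -0.45 ± 0.276 (95% interval -1.08 to 0.181, edgeR adjusted p = 0.425). Its direction turned with the libraries used, at 0.99 without the 48 h biopsy and -0.999 without the 12 h biopsy (edgeR adjusted p = 0.00636). These fits too take their spread from the control pair alone. The highest SELP level was at 24 h. ICAM2 had a slope of -0.08 ± 0.117 (95% interval -0.348 to 0.186, edgeR adjusted p = 0.759).

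**Figure D2:**
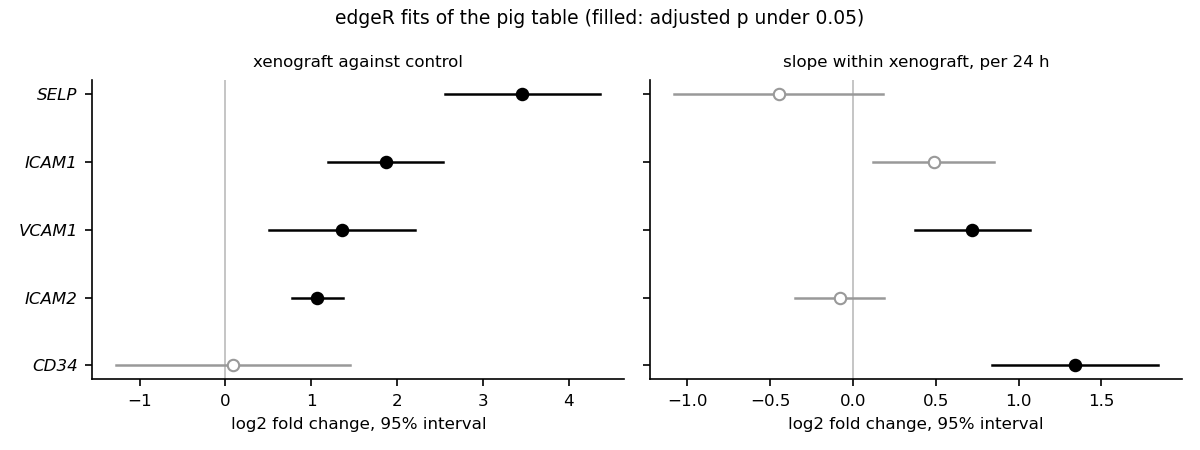
Fitted log2 fold changes of the 5 adhesion genes in the pig table (horizontal axes) with 95% intervals from edgeR, for the 3 xenograft biopsies against the 2 controls on the left and for the slope per 24 h within the xenograft on the right, filled where the adjusted p was under 0.05. SELP stands at 3.46 on the left while the CD34 interval spans 0, and on the right CD34 at 1.34 and VCAM1 at 0.72 are the filled points.

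The 5 genes had different time courses in these 5 libraries. SELP was highest at 24 h, VCAM1 and ICAM1 were nearly level between 12 and 24 h and higher at 48 h, ICAM2 stood at 55.4 to 64.0 CPM in the biopsies, and CD34 was 4.55-fold higher at 48 h than at 12 h. Over centred log2 profiles the closest pair of the 10 was VCAM1 and ICAM1, at a Euclidean distance of 0.655, and the most distant was SELP and CD34 at 4.34. The distances describe 5 libraries and carry no test.

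Endothelial genes as a group were also higher in the xenograft biopsies. Of the 20 endothelial identity genes, 12 rose and 0 fell, with a median log2 fold change of 0.78. PECAM1, the junction molecule CD31, rose 3.68-fold (log2 1.88 ± 0.167, edgeR adjusted p = 0.000665) and CDH5, the VE-cadherin gene, rose 3.22-fold (adjusted p = 0.00435, and 0.06 without control replicate 2). Not all of the list moved. KDR, the main VEGF receptor, had 90.5, 90.4 and 83.5 CPM at 12, 24 and 48 h in the xenograft, against 109.9 and 84.1 CPM in the controls (adjusted p = 0.479), and the sialomucin EMCN had an adjusted p of 0.984. Without control replicate 1 the list had 6 genes higher, and without control replicate 2 it had 4.

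Each adhesion gene was therefore set against the geometric mean of the 20 endothelial genes, which was 36.9, 39.5 and 41.9 CPM at 12, 24 and 48 h in the xenograft, against 24.8 and 21.9 CPM in the controls. On this scale SELP was higher in the xenograft biopsies by 2.67 on the log2 scale (mean -2.26 ± 0.548 SD in 3 xenograft biopsies and -4.94 ± 0.183 in 2 controls). ICAM1 was higher by 1.08, VCAM1 by 0.53 and ICAM2 by 0.31, and for these genes and SELP no biopsy overlapped a control. CD34 was at -1.90, -0.63 and 0.10 per endothelial level at 12, 24 and 48 h in the xenograft, against 0.07 and 0.15 in the controls, so the 48 h biopsy fell between the controls. An exact permutation test of 3 libraries against 2 cannot reach 0.05, so these are values without a test. The share of all genes without overlap on this scale is not given here, so the lack of overlap has no background beside it.

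The choice of the endothelial gene mattered. Both single genes used were called higher, and PECAM1 had the largest log2 rise of the list, at 1.88 beside a list median of 0.78. Genes of the list that did not pass, such as KDR and EMCN, were not used alone as denominators. With PECAM1 alone as the denominator, SELP was still higher by 1.54 on the log2 scale, without overlap. ICAM1 was then at -0.05, VCAM1 at -0.61, ICAM2 at -0.82 and CD34 at -2.05 relative to the controls. With CDH5 alone, SELP was higher by 1.76, ICAM1 stood at 0.17, VCAM1 at -0.38, ICAM2 at -0.59 and CD34 at -1.83. Under both single genes every CD34 biopsy, the 48 h one included, lay below both controls. SELP was the only gene of the 5 whose biopsies all lay above both controls under each of the 3 denominators. The share of all genes that would do so is not given here.

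**Figure D3:**
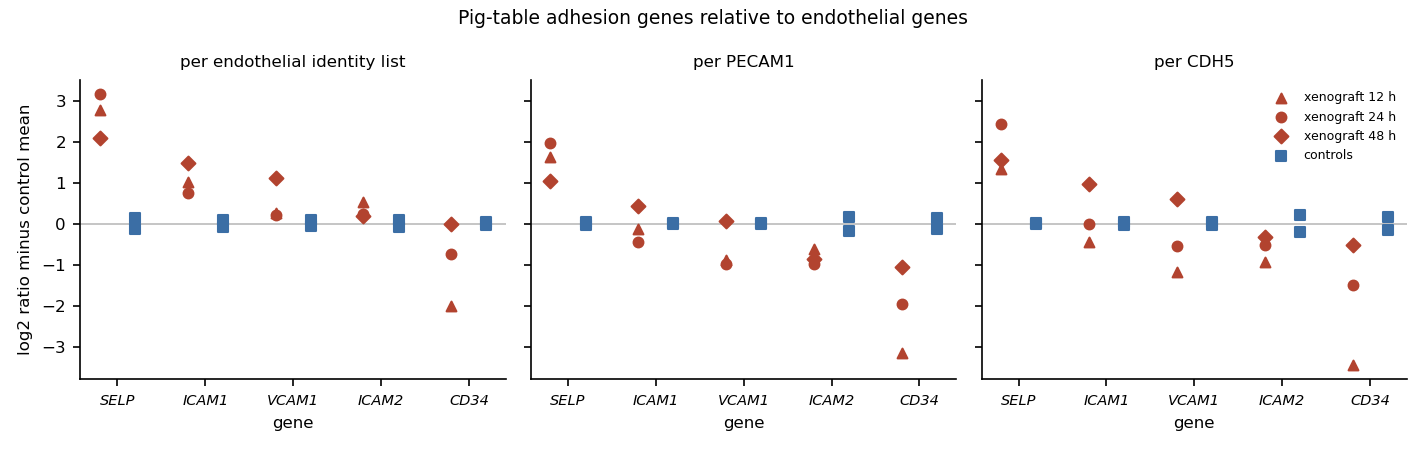
Log2 ratio of each adhesion gene to an endothelial level, minus the mean of the controls (vertical axis), for each gene (horizontal axis), with the level taken from 20 endothelial identity genes, from PECAM1 or from CDH5 in the 3 panels, 1 red symbol for each xenograft biopsy and 1 blue square for each control. SELP lies above the controls in every panel, by 2.67, 1.54 and 1.76 on average, while the ICAM2 biopsies lie above the controls in the first panel and below them in the others.

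Markers of other cells also differed between the biopsies and the controls, not all in the same direction. The summed level of 10 mural and fibroblast markers was 2033, 3382 and 6156 CPM at 12, 24 and 48 h in the xenograft, against 1360 and 1010 CPM in the controls, and 7 of the 10 rose over the controls, although 3 did so with control replicate 1 left out, 0 with control replicate 2 left out and 2 with the 24 h biopsy left out. The 7 injured tubule markers summed to 10150, 5824 and 6917 CPM in the xenograft, against 636 and 615 CPM in the controls, and all 7 rose (4 without control replicate 1 and 3 without control replicate 2). The 9 pig-table leukocyte markers summed to 225, 210 and 347 CPM in the xenograft, against 149 and 144 CPM in the controls, while PTPRC, which encodes the leukocyte common antigen CD45, had 12.8, 13.1 and 22.8 CPM in the xenograft, against 19.2 and 20.4 CPM in the controls. The 9 myeloid markers in the pig table summed to 306, 392 and 447 CPM in the xenograft, against 95.9 and 116.5 CPM in the controls, and of 8 tested 5 rose and 1 fell, with a median log2 fold change of 2.56. The 8 platelet and megakaryocyte markers summed to 72.0, 62.3 and 75.6 CPM in the xenograft, against 44.1 and 38.4 CPM in the controls, and of 4 tested 1 rose. Among them ITGB3, an integrin chain that endothelium also makes, had 28.2, 25.7 and 38.6 CPM in the xenograft, against 4.72 and 3.55 CPM in the controls, while PPBP, a platelet chemokine, had 0 to 4 counts in every library. All 9 proximal tubule markers fell, with a median log2 fold change of -2.20, and they summed to 7529, 9259 and 7296 CPM in the xenograft, against 22900 and 23790 CPM in the controls. For every 100 pig-table counts in the pooled biopsies, the human table held 42.5 (CYTIP) to 197 (LCP1) counts among the leukocyte markers. Among the myeloid markers with enough counts it held 0.264 (CD68) to 623 (CSF3R). The part of human reads in the pig-table leukocyte and myeloid sums was not tested. The part of all these cells in the changes of SELP, ICAM1, VCAM1, ICAM2 and CD34 was not tested.

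In the human table the untransplanted pig controls set the background, because any count there comes from tissue without human cells. ICAM1 had 153, 119 and 368 human-table counts at 12, 24 and 48 h in the xenograft, against 1 and 0 in the controls. ICAM2 had 217, 144 and 214 counts in the xenograft, against 2 and 0 in the controls. SELP had 29, 30 and 14 counts in the xenograft, against 1 and 0 in the controls. For these 3 genes every biopsy was far above both controls. The share of all human-table genes with every biopsy above both controls is not given here, so this separation has no background beside it.

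VCAM1 had 370, 355 and 654 human-table counts at 12, 24 and 48 h in the xenograft, against 156 and 127 in the controls. CD34 had 33, 101 and 176 counts in the xenograft, against 64 and 43 in the controls. Both genes thus had a background of their own in untransplanted pig kidney, and CD34 at 12 h was below it. SELE, the E-selectin gene of activated endothelium, had 4, 4 and 5 counts in the xenograft, against 1 and 0 in the controls. It was too low to be tested, and a count of 0 in a library allows up to 3.69 counts at the 95% level.

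Scaled to library size, the pooled xenograft over control ratio was 274 for ICAM1 (95% counting interval 49.0 to 10800), 123 for ICAM2 (33.9 to 1020) and 31.2 for SELP (5.43 to 1250). For SELE it was 5.56 with an interval of 0.836 to 236 that includes 1, so no difference was detectable at this depth. VCAM1 stood at 2.09 (1.83 to 2.38) and CD34 at 1.24 (0.992 to 1.56). These intervals cover counting error only. Of the 5 genes tested in the human table, 4 were called higher and 0 lower, with edgeR adjusted p of 4.28e-05 for ICAM2, 0.000888 for ICAM1, 0.00343 for SELP and 0.02 for VCAM1. Genes near 0 in the controls reach the count minimum through their biopsy counts alone, and the background was 19.3% of 18387 human-table genes called higher, 15.9% lower and 35.1% in either direction. The VCAM1 call was lost without control replicate 1 (adjusted p = 0.12) and without control replicate 2 (adjusted p = 0.146), and CD34 had an adjusted p of 0.73.

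Within the xenograft, edgeR called 0 of these 5 genes in the human table over time, against 0.925% of all human-table genes called higher, 0.196% lower and 1.12% in either direction. At an unadjusted p under 0.05 there were 3 in edgeR, beside 2069 of all 18387 human-table genes. DESeq2 called 1, CD34, with an adjusted p of 0.0326, beside 197 of all genes higher and 79 lower.

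Human-table counts were then set against pig-table counts of the same gene in the same library. ICAM1 had 3.81, 3.31 and 6.26 human counts per 100 pig counts at 12, 24 and 48 h in the xenograft, against 0.0853 and 0 in the controls. ICAM2 had 4.68, 3.57 and 5.54 in the xenograft, against 0.119 and 0 in the controls. The pooled ratio was 93.8 times the control ratio for ICAM1 (95% counting interval 16.8 to 3640) and 71.9 times for ICAM2 (19.8 to 595). At the control ratio the ICAM1 biopsies would hold 2.03, 1.82 and 2.97 human-table counts.

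VCAM1 had 4.28, 3.99 and 4.02 human counts per 100 pig counts at 12, 24 and 48 h in the xenograft, against 3.71 and 4.39 in the controls. The biopsies lay within the range of the controls, and the pooled ratio was 1.02 times the control ratio (0.898 to 1.17), or 0.818 times when both tables were scaled to CPM. At the control ratio the VCAM1 biopsies would hold 345, 355 and 648 human-table counts, beside the 370, 355 and 654 counted. In CPM, the VCAM1 ratios of the biopsies were 14.8, 14.6 and 13.4 per 100, all below the 15.7 and 19.0 of the controls.

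CD34 had 4.60, 5.46 and 5.82 human counts per 100 pig counts at 12, 24 and 48 h in the xenograft, against 4.10 and 3.4 in the controls, 1.46 times the control ratio when pooled (1.16 to 1.85). The median over all 11964 genes with counts in both tables was 1.18, also in counts. Scaled to CPM the CD34 ratio was 1.19 times that of the controls and its 12 h biopsy fell between them. No median over all genes is given on the CPM scale. For SELP the values were 4.87, 3.57 and 3.60 in the xenograft, against 1.89 and 0 in the controls, but the controls held only 1 human-table count beside 87 pig-table counts. The pooled SELP ratio of 3.48 therefore had an interval of 0.589 to 141, and a difference was not detectable at this depth.

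**Figure D4:**
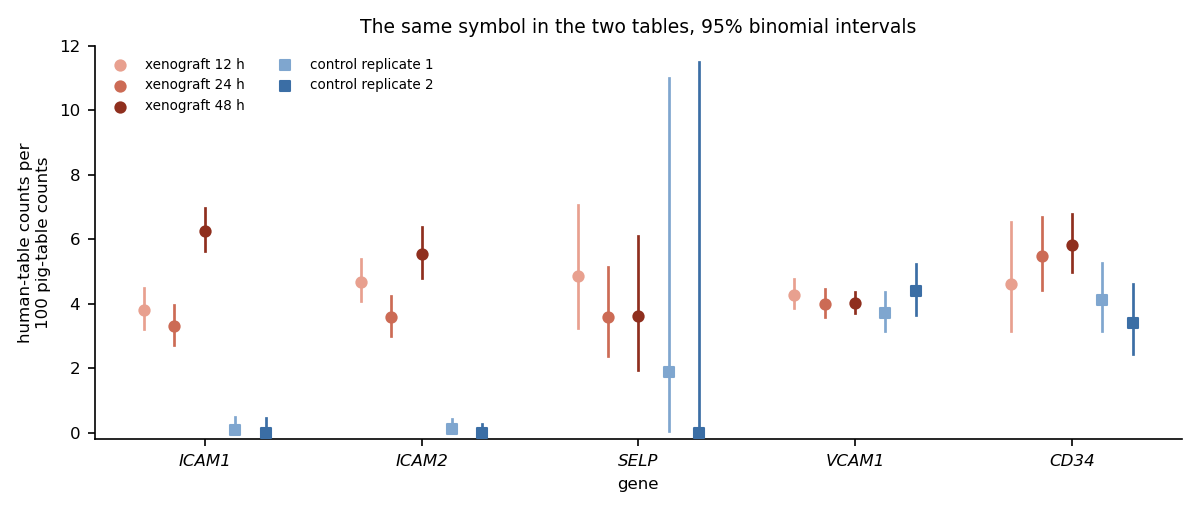
Human-table counts per 100 pig-table counts of the same gene (vertical axis) for each gene (horizontal axis), with 1 circle for each xenograft biopsy, 1 square for each untransplanted control and exact 95% binomial intervals that cover counting error only. ICAM1 and ICAM2 stand at 3.31 to 6.26 in the biopsies and at 0.119 or less in the controls, while VCAM1 stays between 3.71 and 4.39 in all 5 libraries.

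Of the 5 genes, 3 had a pooled ratio over 1.5 times that of the controls (ICAM1, ICAM2 and SELP), where the background was 23% of 11964 genes with counts in both tables. Among other markers, 9 of 9 leukocyte genes passed this mark with a median of 7.82, and so did 7 of 7 myeloid genes. Of 20 endothelial identity genes, 3 did, namely PECAM1 at 2.06, FLI1 at 1.83 and SOX17 at 1.54, and the list's median was 1.08. Of 10 mural and fibroblast genes and of 9 proximal tubule genes, 0 did.

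Human blood cell markers were present beside the human-table ICAM1, ICAM2 and SELP counts. The 9 leukocyte markers summed to 19685, 14347 and 30125 human-table counts at 12, 24 and 48 h in the xenograft, against 1430 and 1218 in the controls. Like human-table ICAM1, they were, among the biopsies, lowest at 24 h and highest at 48 h. Pig-table ICAM1 had the same order, with 4018, 3595 and 5874 counts. The 10 platelet and megakaryocyte markers summed to 372, 285 and 166 counts in the xenograft, against 29 and 18 in the controls, and they included PPBP with 129, 116 and 49 counts in the xenograft, against 1 and 0 in the controls. Among the biopsies, SELP had its lowest human-table count at 48 h, where the platelet sum and the pig-table SELP count (595, 841 and 389) were also lowest. From 12 to 24 h the platelet sum fell while human-table SELP had 29 and 30 counts. For SELP the human to pig ratio was not detectably above that of the controls (3.48 times, interval 0.589 to 141). The part of leukocytes, of platelets and of pig reads in the human-table ICAM1, ICAM2 and SELP counts was not tested.

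The leukocyte receptors for these molecules were also present in human transcripts. SELPLG, which encodes PSGL-1, the ligand of P-selectin, had 413, 370 and 638 human-table counts at 12, 24 and 48 h in the xenograft, against 2 and 1 in the controls. ITGB2, the shared beta chain of LFA-1 and Mac-1 that binds ICAM1 and ICAM2, had 2116, 1800 and 3279 counts in the xenograft, against 23 and 22 in the controls. ITGA4, the alpha chain of the VCAM1 receptor VLA-4, had 677, 324 and 669 counts in the xenograft, against 74 and 25 in the controls. Of 13 counter-receptor genes tested in the human table, 10 rose and 0 fell, with a median log2 fold change of 2.87 beside 0.05 over all human-table genes.

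Of 11 counter-receptor genes tested in the pig table, 5 rose and 0 fell, with a median of 0.78, and the genes called numbered 2 with control replicate 1 left out and 0 with control replicate 2 left out. Pig ITGB2 had 12.3, 14.7 and 22.7 CPM in the xenograft, against 5.22 and 5.53 CPM in the controls (3.08-fold, edgeR adjusted p = 0.00551, 0.0607 without control replicate 1, 0.0663 without control replicate 2). For every 100 ITGB2 counts in the pig table, the human table held 206 in the pooled xenograft biopsies, against 7.50 in the pooled controls, and the part of human reads in its pig-table counts was not tested.

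Other molecules of the vessel wall were examined in the pig table by role. Of 10 junction and transmigration genes, 5 rose and 1 fell (median log2 0.59), led by PECAM1, CDH5 and ESAM, a tight-junction molecule of endothelium, at 1.39 on the log2 scale. Of 11 other endothelial adhesion genes, 4 rose and 1 fell (median 0.67). MCAM, an adhesion molecule of endothelial and mural cells, had 69.6, 39.3 and 45.5 CPM in the xenograft, against 9.17 and 7.89 CPM in the controls (6.03-fold, edgeR adjusted p = 0.00123), and LYVE1, a hyaluronan receptor of lymphatic vessels and some macrophages, rose 4.81-fold. Of 11 genes for selectin ligand glycans, 5 rose and 1 fell (median 0.68), and B3GNT3, which extends core O-glycans, rose 4.53-fold. The genes called higher numbered 3 for junctions, 2 for adhesion and 2 for glycans without control replicate 1. They numbered 2, 2 and 1 in the same order without control replicate 2, and glycans had 3 without the 24 h biopsy.

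Of 20 genes for inducing cytokines and their receptors, 12 rose and 0 fell (median log2 0.92). TNFRSF1B, the second receptor of tumour necrosis factor, had 119.8, 86.7 and 91.0 CPM in the xenograft, against 13.99 and 12.2 CPM in the controls (7.57-fold, edgeR adjusted p = 0.000283). Pig TNF itself had 0.387, 0.261 and 0.655 CPM in the xenograft, against 0.469 and 0.634 CPM in the controls, and did not pass (adjusted p = 0.599). Of 19 NF-kB pathway genes, 11 rose and 0 fell (median 0.49), among them TNFAIP2 at 1.44 and NFKBIA, which encodes an NF-kB inhibitor, at 1.28 on the log2 scale. Without control replicate 1, 8 inducer genes and 3 NF-kB genes were called higher, and without control replicate 2 there were 4 and 3.

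Of 10 Weibel-Palade body genes, which serve the store that holds P-selectin, 6 rose and 1 fell (median log2 1.27). PLAT, tissue plasminogen activator, stood 2.85 higher and RAB3D, a GTPase of secretory granules, 2.19 higher on the log2 scale, while MYRIP, a linker of granules to actin, fell by 1.75. VWF, the main cargo of these bodies, had 23.0, 46.2 and 72.9 CPM at 12, 24 and 48 h in the xenograft, against 22.3 and 15.4 CPM in the controls, and rose by 1.03 ± 0.211 per 24 h (edgeR adjusted p = 0.0395). The VWF slope was 0.65 without the 12 h biopsy and 2.02 without the 48 h one. It stayed called in these fits, whose spread comes from the control pair alone. Its highest biopsy was at 48 h, where SELP was lowest. Of 8 anti-inflammatory endothelial genes, 3 rose and 1 fell (median 0.71), and THBD, thrombomodulin, stood 1.88 higher. Of 11 genes of cytoplasmic linkers, 5 rose and 1 fell (median 0.29), and of 6 sheddase genes, which cut adhesion molecules from the cell surface, 3 rose and 0 fell (median 0.59). Without control replicate 2 the genes called higher were 3 for Weibel-Palade bodies, 1 for the anti-inflammatory list and 2 for linkers, and without control replicate 1 the anti-inflammatory list had 1.

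**Figure D5:**
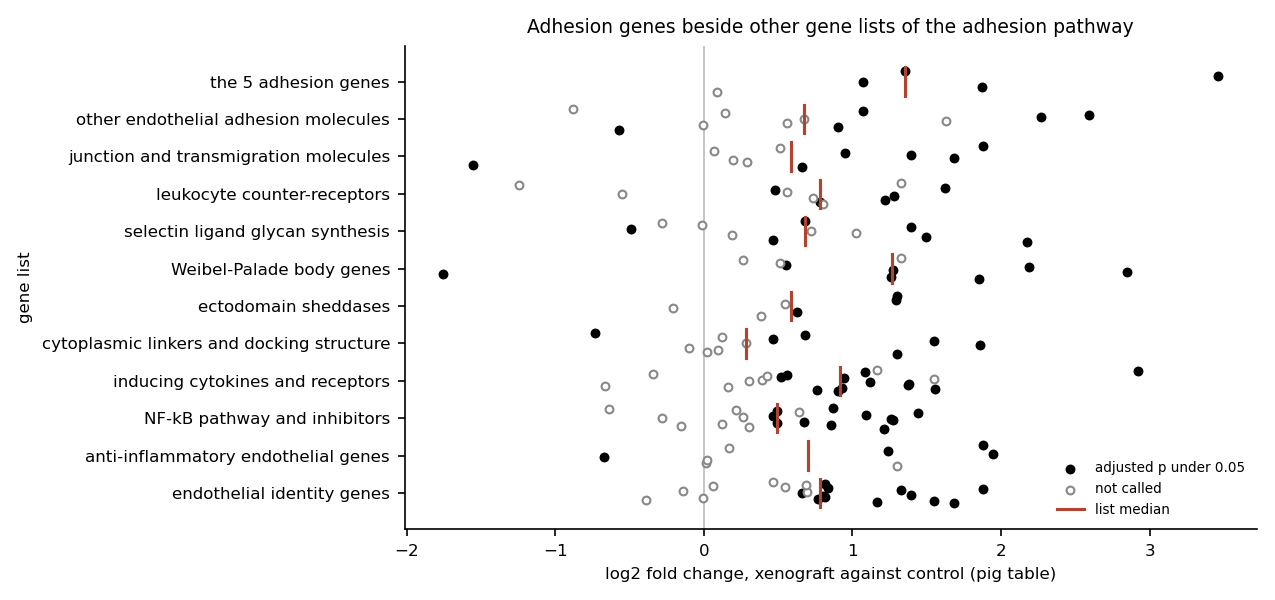
Pig-table log2 fold change of xenograft over control (horizontal axis) for each tested gene of each list (vertical axis), filled where the adjusted p was under 0.05, with a red bar at the list's median. The 5 adhesion genes have a median of 1.36, Weibel-Palade body genes 1.27 and endothelial identity genes 0.78, beside 0.03 over all genes tested.

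The pig genes whose 5-library profile was most like that of each adhesion gene were named by Euclidean distance of centred log2 CPM over 12620 genes. For SELP they were IL11, CAV1 and PLAC9, at distances of 0.427 to 0.454, and CAV1 had 32.3, 39.5 and 28.4 CPM at 12, 24 and 48 h in the xenograft, against 4.07 and 3.28 CPM in the controls. For VCAM1 they were SRPX2, NLRP3 and LY75 (0.174 to 0.233), and for ICAM1 FAM111A, DCLRE1B and CHST15 (0.18 to 0.264). For ICAM2 they were PRKAR2B, TNFRSF1A and MAN1A1 (0.0829 to 0.105). For CD34 they were KLHL4, RFTN2 and JAM2 (0.109 to 0.246), and JAM2 had 3.32, 9.42 and 13.7 CPM in the xenograft, against 9.29 and 7.51 CPM in the controls.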

How the data were processed

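The authors deposited raw read counts per gene symbol in 2 tables, 1 for a pig and 1 for the human genome, which were used as deposited. The submitters' processing notes name hg38. The aligner, the counting tool, its strand setting and mapping competition are not given in the sources used here. Human sex-linked genes that could mark a person were removed. The tests used edgeR 4.0.16 under R 4.3.3 (TMM, filterByExpr with minimum count 10 and minimum total 15, robust quasi-likelihood test, Benjamini-Hochberg at 0.05). The xenograft comparison has 3 residual degrees of freedom and the slope per 24 h has 2. Each SE is the absolute log2 fold change over the square root of F. The procedure was also run on simulated data that gave every gene the same dispersion, a simpler case than these libraries. Its outcome is not given here and does not show how reliable the calls are in these data. Alternatives were DESeq2 1.42.0, RLE size factors, no filter, mitochondrial genes left out, each library left out and, for the human table, pig-table scaling. Leaving out a control for the slope was added after seeing the data. The genes and lists were chosen with earlier results of these data known. Named genes were all 6 adhesion genes, the genes of each list with the largest called changes, defining markers, and the nearest profiles. Reads carry no molecular identifiers. The counting and binomial intervals cover counting error only, while the edgeR intervals also include the spread between libraries. A result for 1 further gene is not reported here.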

Additional observations from a re-analysis of the deposited data

How the results depend on the processing

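No paired analysis was possible because the labels number the control libraries only. SELP and ICAM2 kept their xenograft calls in the pig table under every alternative run. With each library left out in turn, the number of adhesion genes called higher in the pig xenograft comparison ranged from 2 to 4, and the CD34 log2 difference from -0.51 to 0.48. For the pig slope the number ranged from 1 to 3 higher and from 0 to 1 lower, with log2 slopes of -0.999 to 0.99 for SELP, -0.33 to 0.82 for ICAM1 and -0.41 to 0.0521 for ICAM2. In the human table CD34 was at -0.29 without the 48 h biopsy, and the human slopes without it were 0.25 for SELP, -0.57 for ICAM1 and -1.03 for ICAM2. The human slope called 0 to 2 adhesion genes higher with a library left out, 1 with DESeq2, 2 without a filter and 1 with pig-table scaling.

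Relative to PECAM1, the log2 differences were 1.54 for SELP, -0.605 for VCAM1, -0.0539 for ICAM1, -0.818 for ICAM2 and -2.05 for CD34. Relative to CDH5 they were 1.76 for SELP, -0.38 for VCAM1, 0.171 for ICAM1, -0.593 for ICAM2 and -1.83 for CD34. The VCAM1 human to pig ratio was 0.818 in CPM, against 1.02 in counts. The cause of these moves was not tested.

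Over all genes, the pig xenograft comparison called 2332 higher and 2402 lower, against 738 and 1056 once control replicate 1 was left out, or 464 and 727 once control replicate 2 was. The pig slope called 422 higher and 124 lower. Its counts were 662 and 337 without the 12 h biopsy, 1728 and 1037 without the 24 h biopsy and 941 and 585 without the 48 h biopsy, and DESeq2 called 265 lower. The human comparison called 3545 and 2915, against 1857 and 1625 or 1553 and 1319 without either control, and 5441 and 1711 with pig-table scaling, where the median log2 difference of all genes was 0.35, against 0.05 (0.23 without a filter). The human slope called 170 and 36, against 37 to 727 and 2 to 247 with a library left out, 598 and 190 without a filter, 291 and 57 with pig-table scaling, and 79 lower with DESeq2. Low human-table counts of SELP and SELE limit what can be seen of them.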
